A study of Mus musculus with 8 samples.

Results

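The expression of 9 genes of vitamin A metabolism and aldehyde oxidation was followed in biliary cells of mouse liver: Aldh1a1, Aldh1a2, Aldh1a3, Aldh1b1, Aldh3a1, Rbp4, Lrat, Rarb and Cyp26b1. They were chosen by name, and each had 1 row among the 46603 genes of the count table, so that 9 of 9 were found. The libraries came from 4 mice, JV602, JV621, JV624 and JV6314, with an EGFP-positive and an EGFP-negative library from each. All 4 mice carried R26rtTA het/H2B-EGFP het, in which the ubiquitously active Rosa26 locus drives the doxycycline-dependent activator of a histone 2B-EGFP fusion. All were given doxycycline between postnatal days 0 and 5 and were sampled at 8 weeks of age. The fusion protein is diluted at each division, so the cells that stayed green, called liver label-retaining cells (LLRCs), are those that divided little, and the EGFP-negative cells are called non-LRC cells. Both were sorted as EpCAM-positive and CD45-negative cells from perfused liver. The study's text notes that blood cells of these animals make the fusion also in the absence of doxycycline, so that EGFP alone is not a mark of slow division in every cell type. The comparison asks which genes set LLRCs apart from other biliary cells.

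Vitamin A reaches cells as retinol bound to its carrier in the blood. Inside a cell it is either esterified for storage, which in the liver is the best known role of stellate cells, or oxidised to retinaldehyde and then to retinoic acid. Retinoic acid binds nuclear receptors and switches genes on, and enzymes of the Cyp26 family destroy it. The retinaldehyde dehydrogenases that make it belong to the aldehyde dehydrogenase family, whose activity is also widely used to mark stem and progenitor cells.

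The LLRC libraries held 7860021 to 9851819 counts each and the non-LRC libraries 4670132 to 8056103. A count of 0 allows up to 3 counts, which corresponded to between 0.291 and 0.626 CPM (counts scaled by TMM to a common library size) and covers counting error only. The sorted cell type was checked by its markers, and Epcam stood between 432.5 and 765.5 CPM in all 8 libraries. Some libraries stood apart. The summed level of 10 hepatocyte markers was 7785 and 5915 CPM in the non-LRC libraries of JV624 and JV6314 and lay between 2391 and 4040.0 CPM in the other libraries. Pancreatic acinar markers summed to 1179.8 CPM in the non-LRC library of JV6314 and to at most 22.9 CPM elsewhere. The non-LRC library of JV621 had reads of 14234 genes, against 16042 to 20430 in the other libraries. In such bulk samples, fewer cells of a type and less RNA per cell cannot be told apart. Where 4 values of a group follow each other below, they stand in the order JV602, JV621, JV624 and JV6314, and means are given with the SD over these 4 libraries. Among leukocyte markers, Ptprc (CD45) was counted 5, 34, 14 and 59 times in LLRCs and 0, 0, 0 and 7 times in non-LRC cells. Its log2 fold change, LLRC over non-LRC, was 3.27 (standard error 1.42), with an adjusted p of 0.957 by quasi-likelihood in edgeR. That of Csf1r was -0.16 (standard error 0.44). Adgre1, Clec4f, C1qa and C1qb had 0 counts in LLRCs and at most 39 in any non-LRC library. The part of blood cells in these libraries was not tested.

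Among the members, Lrat was lower in the LLRC than in the non-LRC library of every mouse, by 7.86-fold in the fit, whereas for Rbp4 and Aldh1a1, the members with the highest levels, the groups overlapped. Cyp26b1 was read mainly in the non-LRC libraries of 2 mice. Aldh1a2 and Aldh1b1 varied widely within the groups, and Aldh1a3 and Aldh3a1 were at or close to 0. Of the 9 members, 6 passed the expression filter and were tested among 13605 genes, and Aldh1a3, Aldh3a1 and Cyp26b1 did not pass. No member had an adjusted p below 0.05 when tested by quasi-likelihood in edgeR, and neither did any other gene (0 of 13605, 0%). DESeq2 called 221 genes, the exact test of edgeR 154 and limma 0. At an unadjusted p below 0.05 the quasi-likelihood test gave 702 genes, of which 485 were lower in LLRCs (3.56% of those tested), and Lrat was the only member among them. The plot of the members by library shows these values.

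**Figure D1:**
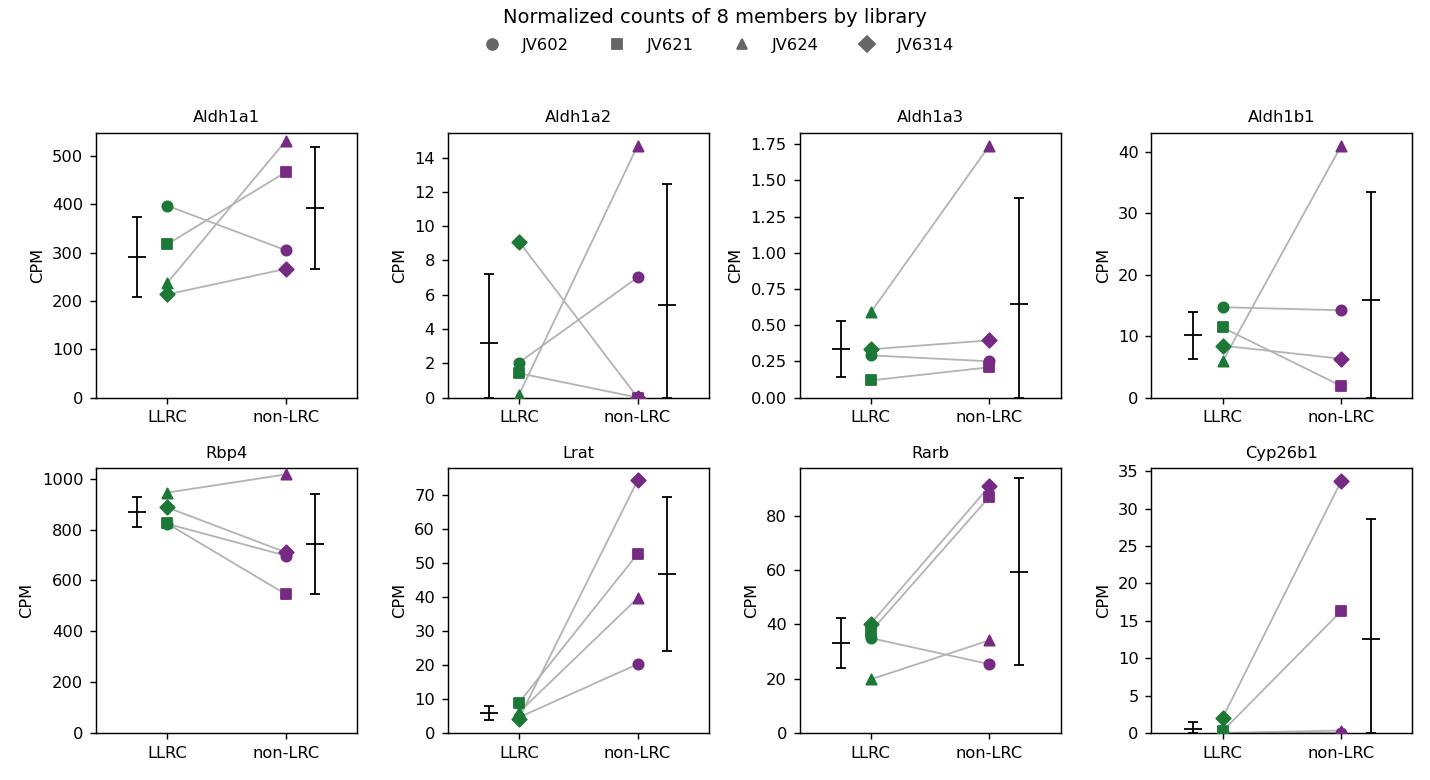
Normalized counts (CPM, linear axes from 0) of 8 members in LLRC (green) and non-LRC (purple) libraries, where symbols mark the mouse, grey lines join the 2 libraries of a mouse, and black bars give the mean and SD of 4 libraries, drawn down to 0 at most. Lrat was the member for which the groups did not overlap, at 4.22 to 8.87 CPM in LLRCs and 20.2 to 74.2 CPM in non-LRC cells; Aldh3a1, at 0 in all 8 libraries, is not drawn.

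Levels of different genes were compared per length, as CPM per kilobase of exon averaged over the 8 libraries. Rbp4 was highest with 600.4, followed by Aldh1a1 with 69.2 and Rarb with 8.76. Aldh1b1 had 5.65, Lrat 4.91, Aldh1a2 1.90, Cyp26b1 1.23 and Aldh1a3 0.106 CPM per kilobase, and Aldh3a1 was at 0. Rbp4 exceeded Aldh1a1, and Aldh1a1 exceeded Rarb, in 8 of 8 libraries. From Rarb down to Cyp26b1, each pair of neighbours in the order stood the other way round in 2 of 8 libraries, and the order was not tested. In every LLRC library Rarb stood above Aldh1b1 and Aldh1b1 above Lrat, so these pairs were reversed in non-LRC libraries only. Part of the exons of Rarb could not be counted, as described with that gene, and over the others it stood at 13.3 CPM per kilobase, with Aldh1b1 higher in 1 of 8 libraries. Cyp26b1 exceeded Aldh1a3 in 4 of 8 libraries.

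**Figure D2:**
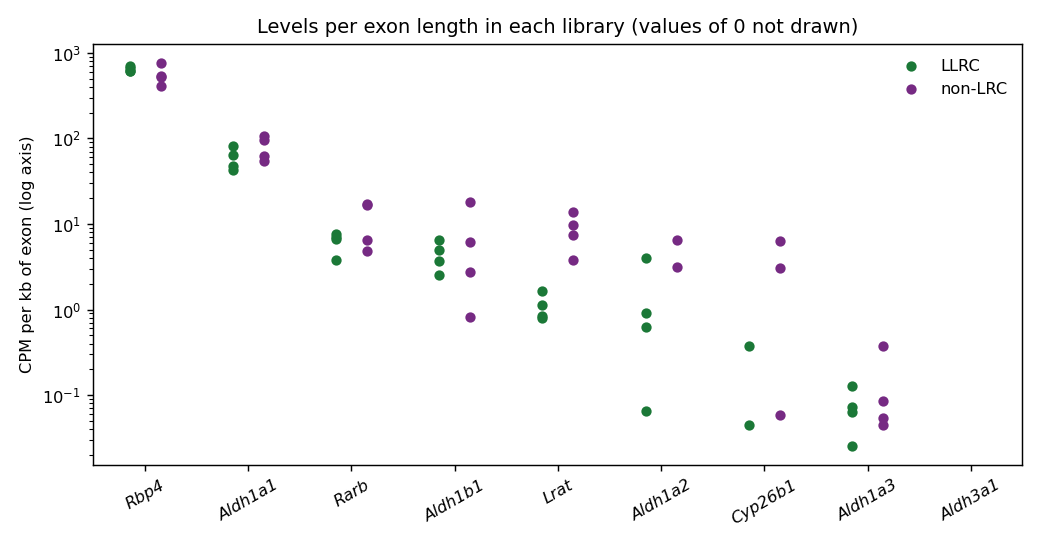
Level of each member per exon length in CPM per kilobase (log axis), 1 point per library, with LLRCs in green and non-LRC cells in purple and values of 0 not drawn. Rbp4 and Aldh1a1 lie above the other members in every library, and Aldh3a1 has no point.

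Rbp4 encodes the carrier that takes retinol through the blood and is known as a product of hepatocytes. Its level was 822.8, 824.0, 945.4 and 887.3 CPM for LLRCs. For non-LRC cells it was 697.4, 545.8, 1017 and 710.5 CPM. The groups overlapped, since the highest and the 3 lowest values were all from non-LRC cells. The LLRC mean of 869.9 ± 58.7 CPM and the non-LRC mean of 742.7 ± 197.5 CPM differed by 0.23 on the log2 scale (standard error 0.25, 95% interval -0.35 to 0.80), with an adjusted p of 0.9999 by quasi-likelihood in edgeR. LLRCs were higher in 3 of 4 mice. The interval leaves room for a fold of 0.787 to 1.74. The genes of the hepatocyte list were uneven beside Rbp4. Apoa2, an apolipoprotein gene, had 143 counts in the non-LRC library of JV621 and 6789 in that of JV624, where Rbp4 had 2614 and 6443, while Alb, which encodes albumin, had 7214 and 17565 there. Of the 10 hepatocyte markers, 8 had a log2 fold change below 0, 7 of them with an unadjusted p below 0.05 and 0 with an adjusted p below 0.05, and the median was -1.71, from -2.79 for Apoa2 to 0.24 for Ambp, with 0.01 for Alb. The part of hepatocyte RNA in the level of Rbp4 was not tested. Ttr, which encodes transthyretin, the partner of Rbp4 in the blood, averaged 367.4 ± 80.3 CPM for LLRCs and 421.9 ± 110.7 CPM for non-LRC cells, with a log2 difference of -0.20 (standard error 0.29).

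Lrat encodes lecithin retinol acyltransferase, the enzyme that esterifies retinol for storage, and lies on chromosome 3 (82892579 to 82903973 of GRCm38, minus strand). It was counted 47, 75, 41 and 38 times in LLRCs and 161, 252, 251 and 376 times in non-LRC cells. Scaled to library size these were 4.56, 8.87, 6.03 and 4.22 CPM against 20.2, 52.6, 39.6 and 74.2 CPM. All 4 LLRC libraries lay below all 4 non-LRC libraries, which was so for 260 of the 13605 genes tested (1.91%). The LLRC mean was 5.92 ± 2.12 CPM and the non-LRC mean 46.6 ± 22.7 CPM. The log2 fold change was -2.98 (standard error 0.49, 95% interval -4.08 to -1.87), or 7.86-fold lower in LLRCs with an interval of 3.65 to 17.0.

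Within the mice, the log2 difference of Lrat between the LLRC and the non-LRC library was -2.13 in JV602, -2.56 in JV621, -2.70 in JV624 and -4.11 in JV6314, so it was lower in 4 of 4. By quasi-likelihood in edgeR the unadjusted p was 0.000176 and the adjusted p 0.104. The exact two-sided permutation test over 4 against 4 libraries gave p = 0.029, the smallest it allows, and the exact paired test over 4 mice gave 0.125, again its smallest. The call depended on the test. With DESeq2 the log2 fold change was -3.02 and the adjusted p 6.99e-07, and 172 genes were called lower in LLRCs (1.26% of those tested). With the exact test of edgeR the adjusted p was 8.39e-05, and 123 genes were called lower (0.904%). With the newer dispersion estimate of the quasi-likelihood fit the adjusted p was 0.0343, and 61 genes were called lower (0.448%). The value itself stayed between -3.23 and -2.46 over 19 alternatives, with adjusted p between 6.99e-07 and 0.588.

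**Figure D3:**
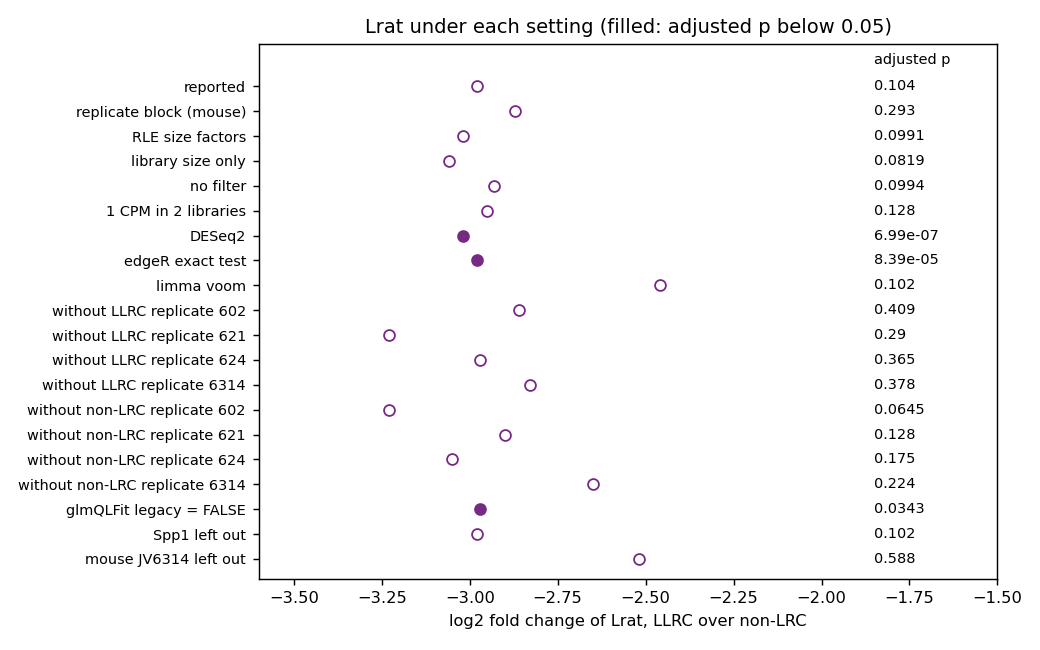
Log2 fold change of Lrat, LLRC over non-LRC, in the reported fit and under 19 alternatives, with the adjusted p of each at the right and filled points where it was below 0.05. All points lie between -3.23 and -2.46, and 3 of the alternatives (DESeq2, the exact test and the newer dispersion estimate) have filled points.

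Markers of other cell types moved with Lrat. Among 12 endothelial markers, 10 were tested and 10 were lower in LLRCs with an unadjusted p below 0.05. Their median log2 fold change was -3.53, beside -0.01 over all genes tested, and 0 had an adjusted p below 0.05. Pecam1, Cdh5, Emcn and Stab2 passed the expression filter only through non-LRC cells, where they were high. Pecam1, Cdh5, Tek and Eng are among the genes that the study reports as lower in LLRCs from these same libraries. The count and the median thus describe this list and do not test it. The summed level of the 12 markers was 36.4, 70.4, 55.6 and 50.3 CPM for LLRCs and 230.7, 921.1, 477.5 and 708.0 CPM for non-LRC cells, so that none of the 8 libraries was without them. Per 100 CPM of that sum, Lrat stood at 12.5, 12.6, 10.8 and 8.39 CPM for LLRCs and at 8.74, 5.71, 8.30 and 10.5 CPM for non-LRC cells. In this ratio the groups overlapped, and LLRCs were higher in JV602, JV621 and JV624 and lower in JV6314. Per 100 CPM of the summed stellate markers described next, Lrat stood at 1.6, 1.42, 0.639 and 0.585 CPM for LLRCs and at 2.69, 7.07, 1.17 and 2.63 CPM for non-LRC cells, lower for LLRCs in 4 of 4 mice, while the groups overlapped. Most of the stellate sum came from Dcn and Reln. They gave 66.2 and 187.5 of 284.8 CPM in LLRCs of JV602, and 2311 and 170.5 of 3378 CPM in non-LRC cells of JV624. Both ratios were chosen after the values were seen.

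Of 14 hepatic stellate cell markers, 8 were tested, 4 of them lower in LLRCs with an unadjusted p below 0.05, and the median log2 fold change was -2.43. Their sum was between 284.8 and 944.3 CPM for LLRCs and 748.3, 744.6, 3378 and 2817 CPM for non-LRC cells. Des, which encodes desmin, was counted 0, 0, 0 and 3 times in LLRCs and 0, 0, 19 and 28 times in non-LRC cells, and Ngfr was at 0 in 6 of the 8 libraries. In non-LRC cells of JV602 and JV621, Des and Ngfr were at 0, while the stellate markers Dcn (3981 and 2327 counts) and Ecm1 (368 and 154 counts) were read, and Lrat had 161 and 252 counts. Reln, another stellate marker, was read at 1863 to 2122 counts in LLRCs and 678 to 1499 in non-LRC cells (log2 difference 0.32, standard error 0.31). Of 8 portal fibroblast markers, 4 were tested, 2 of them lower in LLRCs with an unadjusted p below 0.05, and the median was -1.43. Their sum was 56.0, 27.7, 34.1 and 19.4 CPM for LLRCs and 40.6, 111.7, 94.1 and 67.9 CPM for non-LRC cells. Eln, which encodes elastin, was counted 9, 9, 1 and 1 times in LLRCs and 42, 47, 64 and 35 times in non-LRC cells, while Thy1 had at most 12 counts in any library and was at 0 in 4 of 8. Eln, 1 of the 2 markers with an unadjusted p below 0.05, passed the filter only through non-LRC cells, where it was high. Its p-value is thus not read as a test, and it enters the median of -1.43. The part of endothelial, stellate or portal fibroblast cells in the difference of Lrat was not tested.

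**Figure D4:**
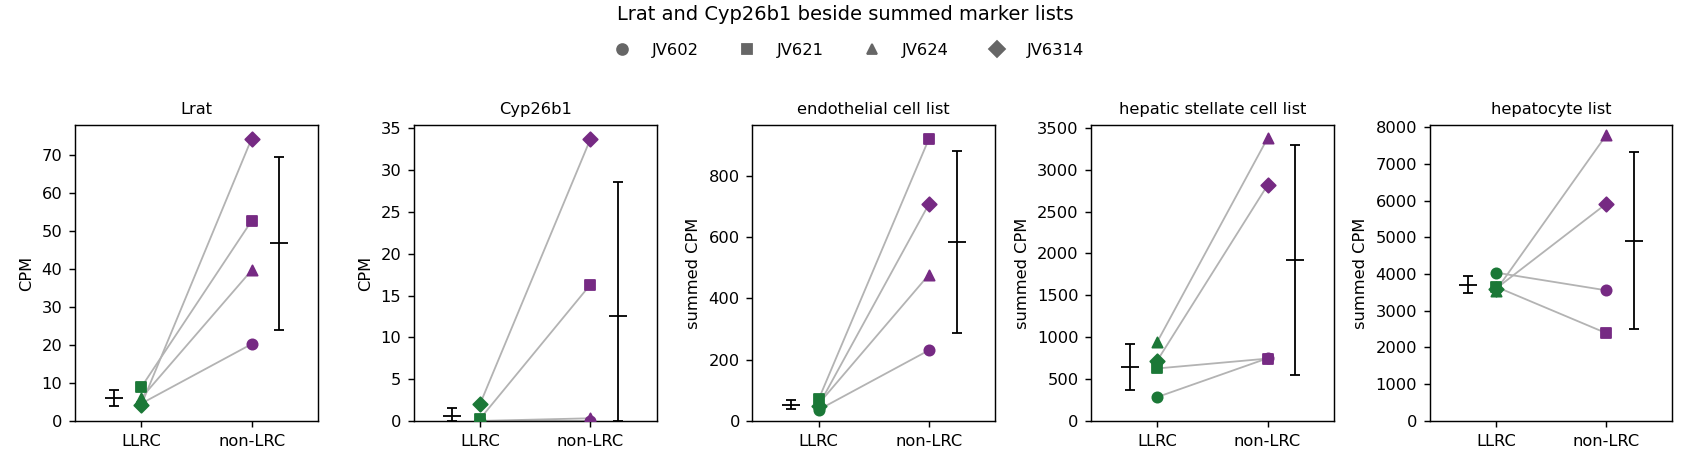
Lrat and Cyp26b1 (CPM) beside the summed CPM of the endothelial, stellate and hepatocyte marker lists, in LLRC (green) and non-LRC (purple) libraries, with symbols and lines by mouse and black bars for the mean and SD of 4 libraries, drawn down to 0 at most. The endothelial sum, like Lrat, does not overlap between groups (36.4 to 70.4 against 230.7 to 921.1 CPM), while the stellate and hepatocyte sums overlap.

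The retinaldehyde dehydrogenases Aldh1a1, Aldh1a2 and Aldh1a3 catalyse the step from retinaldehyde to retinoic acid. Aldh1a1 (chromosome 19, 20492715 to 20643465 of GRCm38, plus strand) stood at 397.3, 317.2, 237.1 and 213.4 CPM for LLRCs. For non-LRC cells it stood at 304.9, 466.7, 531.5 and 266.4 CPM. The groups overlapped, with the lowest values in LLRCs and the highest in non-LRC cells. The LLRC mean was 291.3 ± 83.5 CPM and the non-LRC mean 392.4 ± 127.0 CPM, and LLRCs were lower in 3 of 4 mice. The log2 fold change was -0.43 (standard error 0.32, 95% interval -1.16 to 0.30), with an adjusted p of 0.9999 by quasi-likelihood in edgeR, so that a difference of up to 2.23-fold toward non-LRC cells or 1.23-fold toward LLRCs lies within the interval. Per exon length, Aldh1a1 made up between 91.35% and 99.95% of the summed level of the 3 enzymes in every library. Aldh1a7, a close relative of Aldh1a1, was also counted, with a mean of 18.6 ± 0.877 CPM for LLRCs and 61.1 ± 53.7 CPM for non-LRC cells. The handling of reads that fit both genes is not given in the sources used here.

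Aldh1a2 was counted 21, 12, 1 and 82 times in LLRCs and 56, 0, 93 and 0 times in non-LRC cells. Libraries with 1 count or none thus occurred in both groups. LLRCs were lower in JV602 and JV624 and higher in JV621 and JV6314. The log2 fold change was -0.77 (standard error 1.57, 95% interval -4.32 to 2.77). It turned to 0.42 without the non-LRC library of JV624 and to 0.43 with the mouse as a block. It was -2.14 without the LLRC library of JV6314 and -2.56 without mouse JV6314. The 7 markers of mesothelial cells, a cell type of the liver surface known for Aldh1a2, were highest in the non-LRC library of JV624, at a sum of 3060 CPM against 858.6 to 2256 CPM in the other libraries. In the non-LRC library of JV621, where Aldh1a2 was at 0, the sum was 2256 CPM, of which Gpm6a gave 1919 and Upk1b 314.3 CPM, while Wt1, Lrrn4 and Bnc1 were at 0. In that of JV6314, where Aldh1a2 was also at 0, the sum was 1952 CPM, of which Gpm6a gave 1158 and Upk1b 631.4 CPM. Msln stood at 65.5 and Upk3b at 83.1 CPM there, with 1 count of Wt1. Both sums exceeded those of LLRCs of JV6314 (1615 CPM, 82 counts of Aldh1a2) and non-LRC cells of JV602 (1157.7 CPM, 56 counts). The part of mesothelial cells in these values was not tested. Aldh1a3 was counted 3, 1, 4 and 3 times in LLRCs and 2, 1, 11 and 2 times in non-LRC cells. At most 3 counts were found in 6 of the 8 libraries, so that a difference was not detectable at this depth.

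Aldh1b1 encodes a mitochondrial aldehyde dehydrogenase and Aldh3a1 a cytosolic enzyme best known from the cornea. Aldh1b1 stood at 14.7, 11.4, 5.88 and 8.44 CPM for LLRCs and at 14.2, 1.88, 41.0 and 6.31 CPM for non-LRC cells. Both the lowest and the highest value were from non-LRC cells. LLRCs were higher in 3 of 4 mice, while their mean of 10.1 ± 3.81 CPM lay below the non-LRC mean of 15.8 ± 17.5 CPM. The log2 fold change of -0.65 (standard error 0.81, 95% interval -2.47 to 1.17) turned to 0.43 without the non-LRC library of JV624 and to 0.09 with the mouse as a block. Without that library the non-LRC mean was 7.45 CPM. Aldh3a1 had 0 counts in all 8 libraries, which allows up to 0.291 to 0.626 CPM per library.

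Rarb encodes retinoic acid receptor beta, itself a well known target gene of retinoic acid. It stood at 34.9, 37.3, 19.7 and 40.2 CPM for LLRCs and at 25.3, 86.9, 34.1 and 90.8 CPM for non-LRC cells. The non-LRC libraries of JV621 and JV6314 were above all others, and the other 2 lay within the range of LLRCs. The LLRC mean was 33.0 ± 9.13 CPM and the non-LRC mean 59.3 ± 34.4 CPM, and LLRCs were lower in 3 of 4 mice. The log2 fold change was -0.84 (standard error 0.48, 95% interval -1.92 to 0.23), with an adjusted p of 0.9999 by quasi-likelihood in edgeR. Of the exon bases of Rarb, 34.1% lie also in exons of Top2b on the opposite strand. Reads were counted without strand and in union mode, in which a read on both genes counts for neither. Top2b had 983 to 1902 counts in LLRCs and 179 to 1200 in non-LRC cells (log2 difference 0.61).

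Cyp26b1 encodes an enzyme that inactivates retinoic acid and lies on chromosome 6 (84571414 to 84593908 of GRCm38, minus strand). It was counted 0, 2, 0 and 18 times in LLRCs and 0, 78, 2 and 171 times in non-LRC cells. The transcript was thus read above 3 counts in both libraries of JV6314 and in the non-LRC library of JV621. Non-LRC cells were higher in JV621 and JV6314, whereas the libraries of JV602 and JV624 held at most 2 counts and gave no direction. The LLRC mean was 0.559 ± 0.966 CPM and the non-LRC mean 12.6 ± 16.0 CPM, and without JV6314 they were 0.0788 and 5.53 CPM. The exact two-sided permutation test gave p = 0.26. Without the expression filter the log2 fold change was -4.37 (standard error 1.80), and the adjusted p was 0.633 by quasi-likelihood in edgeR. The 2 non-LRC libraries with the transcript were also those with the highest levels of Rarb and the highest endothelial sums, and that of JV6314 was the one with 1179.8 CPM of pancreatic acinar markers. The part of these cells in the values of Cyp26b1 and Rarb was not tested.

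Since Rarb and Cyp26a1 are known to respond to retinoic acid through paired receptor half-sites, promoters were searched for such pairs. Promoter sequences (RefSeq, GRCm38.p6, 250 bases before to 50 after each start) were found for 7 of the 9 members, with 9 promoters. The half-site was AGGTCA, with A or G as the first letter and G or T as the third, followed after 5 bases by another, on either strand. It matched 1 of the 9 promoters of members, that of Rarb, 53 to 37 bases before a start site, and outside the members that of Cyp26a1, 32 to 16 bases before its start. Of 32851 promoters of all genes, 32 held a match (0.0974%). The windows of both are shown 5′ to 3′ on the strand of the gene, with the match in capitals, as the sequences by which these genes are known to read out retinoic acid. In Cyp26a1 the match reads on the opposite strand.
Rarb, chr14:16575506-16575535, minus strand: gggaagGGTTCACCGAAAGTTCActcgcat
Cyp26a1, chr19:37697770-37697799, plus strand: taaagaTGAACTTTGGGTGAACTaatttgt
A match describes the letters and not binding. Rarb had 134 to 460 counts per library, while Cyp26a1 had at most 6 counts in any library.

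The other genes of the pathway were taken from lists by role. No gene in any list had an adjusted p below 0.05 by quasi-likelihood in edgeR. Of 12 genes of retinoid uptake, binding and storage, 7 were tested, and the median log2 difference was -0.22, which became -0.35 without the non-LRC library of JV621 or without mouse JV6314, and -0.42 without the non-LRC library of JV6314 alone. The highest were Ttr, Lpl and Stra6l. Lpl, a lipase that also releases retinol from esters, averaged 60.5 ± 16.8 CPM for LLRCs and 64.8 ± 26.8 CPM for non-LRC cells. Stra6l, which encodes a receptor for the retinol carrier, averaged 36.7 ± 11.1 and 37.9 ± 23.4 CPM. Both carotenoid cleavage genes, Bco1 and Bco2, were tested, with log2 differences of -0.92 (standard error 1.21) and -0.63 (standard error 1.05). Their levels were at most 14.0 CPM in any library, and their median of -0.77 became -1.17 without the non-LRC library of JV621, 0.02 without that of JV6314, 0.17 without mouse JV6314 and -0.13 with the mouse as a block.

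Of 19 retinol dehydrogenases and retinaldehyde reductases, 11 were tested, with 9 values below and 2 above 0 and a median of -0.48. Dhrs3, which reduces retinaldehyde back to retinol, was the highest of them, with 383.2 ± 27.3 CPM for LLRCs, 406.4 ± 172.5 CPM for non-LRC cells and a log2 difference of -0.08 (standard error 0.31). Adh1, an alcohol dehydrogenase abundant in hepatocytes, stood at 31.4 to 98.7 CPM for LLRCs and at 61.2, 45.3, 574.9 and 394.0 CPM for non-LRC cells. Its high values were in the 2 libraries with the highest hepatocyte sums. Its log2 fold change was -1.96 (standard error 0.81), with an adjusted p of 0.912 by quasi-likelihood in edgeR, and the part of hepatocyte RNA was not tested. Adh5 followed with a log2 difference of -0.90 (standard error 0.38).

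Of 16 other members of the aldehyde dehydrogenase family, 14 were tested, with a median of -0.32. This median was 0.08 without the non-LRC library of JV624, -0.09 with the mouse as a block and -0.18 with limma. The highest was Aldh6a1, which averaged 295.2 ± 41.3 CPM for LLRCs and 393.1 ± 89.8 CPM for non-LRC cells. Aldh3a2, the fatty aldehyde dehydrogenase, averaged 102.6 ± 19.5 and 119.5 ± 40.7 CPM, and Aldh9a1 43.9 ± 8.60 and 61.1 ± 32.2 CPM. Aldh1a7, Aldh8a1 and Aldh1l1, named after their values were seen, were lower in LLRCs at an unadjusted p below 0.05. Each had its highest level in the non-LRC library of JV624, with 122.8, 154.1 and 148.7 CPM. Aldh1l2, a mitochondrial enzyme of folate metabolism, was also named after its values were seen. It passed the expression filter only through LLRCs, where it was high, so its p-value is not given. It is among the 14 genes above, and with its value set at the bound given next the median stayed at -0.32. It was counted 12, 22, 14 and 27 times in LLRCs and 0, 0, 2 and 0 times in non-LRC cells, at least 4.27-fold higher against a floor of 3 counts per library.

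Of 5 further receptors of retinoic acid and rexinoids, 3 were tested, and the median was -0.86, which became -0.29 without the non-LRC library of JV624 and -0.41 with the mouse as a block. Rxra averaged 8.33 ± 2.81 CPM for LLRCs and 15.2 ± 11.7 CPM for non-LRC cells. Rxrb averaged 2.82 ± 0.972 and 3.24 ± 2.45 CPM, and Rarg 1.42 ± 1.11 and 2.90 ± 1.22 CPM. The other Cyp26 genes were not tested: Cyp26a1 was counted at most 3 times in LLRCs and 0, 0, 6 and 0 times in non-LRC cells, and Cyp26c1 had 0 counts throughout. Of 11 genes known to respond to retinoic acid, 6 were tested, and their median was -0.58, which became -0.34 without the LLRC library of JV624 and -0.33 without mouse JV6314. Besides Dhrs3 the highest were Tgm2, a transglutaminase, with 66.7 ± 39.9 and 73.6 ± 29.0 CPM, and Nrip1, a nuclear receptor corepressor, with 57.2 ± 20.4 and 37.5 ± 25.9 CPM.

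**Figure D5:**
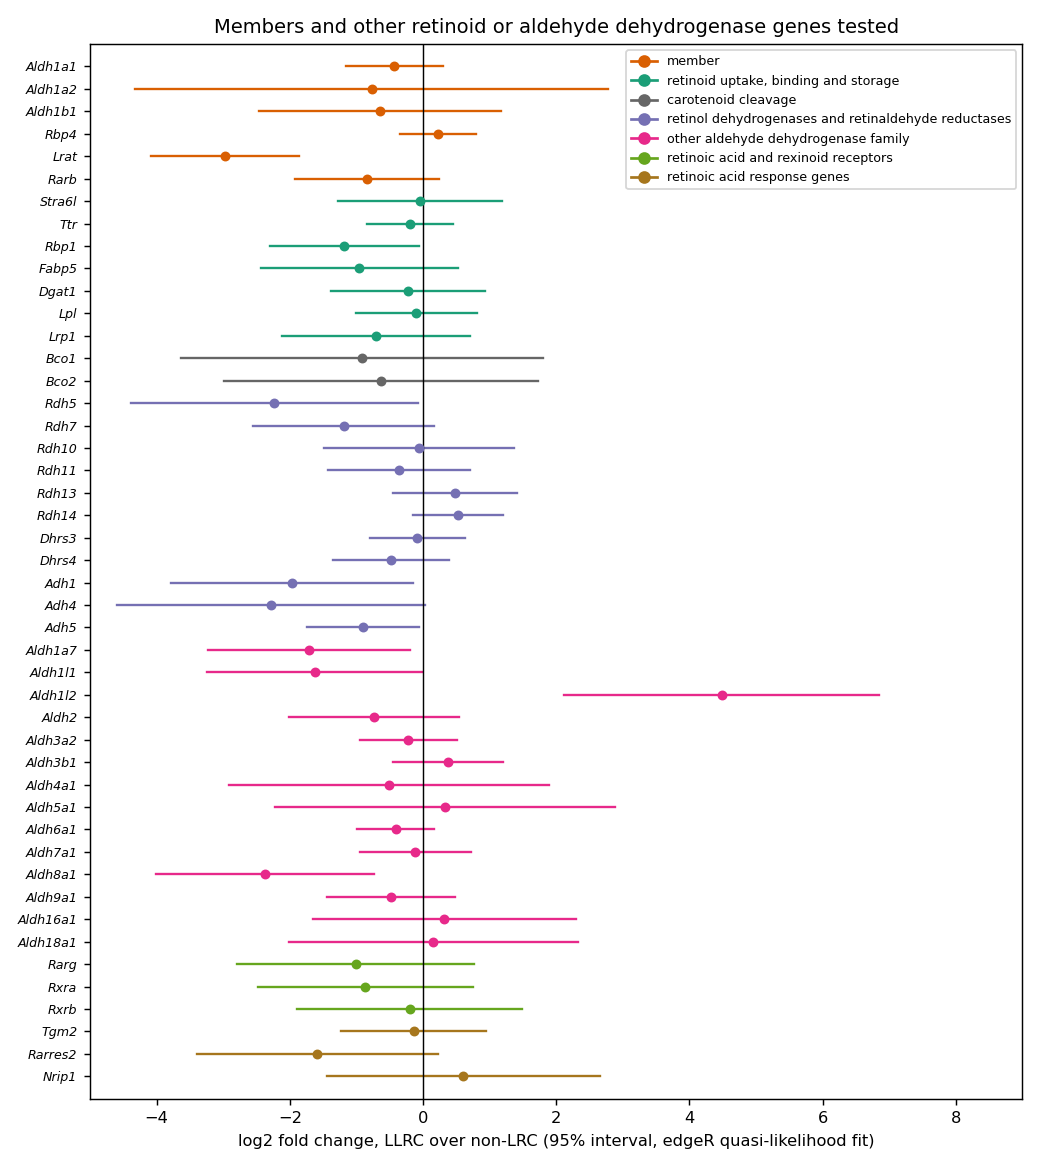
Log2 fold change, LLRC over non-LRC, with its 95% interval from edgeR's quasi-likelihood fit (4 against 4 libraries) for the 6 tested members and the tested genes of the pathway lists, coloured by list. Among the members the interval of Lrat, -4.08 to -1.87, is the one that does not include 0. The value and interval drawn for Aldh1l2 rest on 2 counts in non-LRC cells. They are not read as a test, as it passed the filter only through LLRCs.

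For each tested member, the 3 protein-coding genes with the most similar log2 CPM over the 8 libraries were listed by Pearson's r, as a description, since the libraries share depth, mouse and group. For Lrat they were Egfl7 (0.985), Ptgs1 (0.981) and Gja4 (0.979). The groups lie apart for Lrat, so these values do not describe a relation within a group. Egfl7 is also among the endothelial markers, and was counted 63 to 84 times in LLRCs and 175 to 306 times in non-LRC cells. Gja4 was counted 0, 2, 0 and 0 times in LLRCs and 27, 167, 101 and 83 times in non-LRC cells. Rarb was closest to Entpd5 (0.965), Rab4a (0.953) and Cct7 (0.950), and Aldh1a1 to Actn4 (0.977), Prrc1 (0.973) and Oplah (0.968). Aldh1b1 was closest to Nadsyn1 (0.983), Tmem63b (0.968) and Echs1 (0.960), and Rbp4 to Zswim7 (0.975), Arxes1 (0.956) and Ccdc12 (0.954). Aldh1a2 was closest to Rad51ap1 (0.969), Chrdl1 (0.948) and Car5b (0.947), which like Aldh1a2 had 0 counts in the non-LRC libraries of JV621 and JV6314.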

How the data were processed

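RNA of sorted cells was extracted with a kit for small samples and sequenced. The authors had reads mapped at a service facility (the aligner is not given in the sources used here) and counted them with HTSeq on Ensembl exons of GRCm38.p4, in union mode and without strand. Per gene, the deposited file gives these counts without normalization. The authors' table of their own edgeR 3.2.4 comparison (fold changes and p-values) was not used. Symbols and positions came from GENCODE M21 for 46091 of 46603 identifiers.

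Counts were scaled by TMM, filtered by filterByExpr and tested with edgeR 4.0.16 (R 4.3.3, quasi-likelihood test, group only, Benjamini-Hochberg adjustment over 13605 genes, threshold 0.05), which was tested on simulated data. DESeq2 1.42.0 and limma 3.58.1 served for alternatives. Exact permutation tests used log2 CPM with a prior count of 0.5. The libraries of a mouse come from the same animal, named in the titles. Their deviations from the group means correlated at 0.0982, 0.0514, 3.52e-05 and 0.152 in JV602, JV621, JV624 and JV6314. The members and lists were chosen with earlier results of these data known. Named genes were all members, the 3 highest of each pathway list and the 3 nearest genes of each tested member. Top2b, which overlaps Rarb, and markers of cell types were also named. Aldh1a7, Aldh8a1, Aldh1l1, Aldh1l2 and the leukocyte markers were named after their values were seen.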

Additional observations from a re-analysis of the deposited data

Results flagged for a closer look

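In 16 groups of 4 libraries, the library farthest from the others was looked for by Dixon's criterion, which chance meets in about 1 of 20 groups, and 2 were found. Aldh1a3 stood at 1.74 CPM (11 counts) in the non-LRC library of JV624, against at most 0.395 CPM in the other non-LRC libraries. Cyp26b1 stood at 2.0 CPM (18 counts) in the LLRC library of JV6314, against at most 0.237 CPM in the other LLRC libraries, and the non-LRC library of the same mouse had its highest level, 33.7 CPM.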

How the results depend on the processing

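The number of genes past the threshold was 0 in the reported fit and 11 without the filter, 221 with DESeq2, 154 with edgeR's exact test and 73 with the newer dispersion estimate, which was chosen after seeing the data, as were the settings without Spp1 and without mouse JV6314. When each library was left out in turn it was 0 to 6, with 6 without the non-LRC library of JV602. With the mouse as a block in the paired fit it was 0, the median log2 fold change of all genes was 0.143, and Lrat had -2.87 (adjusted p = 0.293). The block turned the direction of Aldh1a2 (0.43) and Aldh1b1 (0.09) and changed no other call or direction among the 6 tested members. With each library left out in turn, Aldh1a2 ranged from -2.14 to 0.42, Aldh1b1 from -1.01 to 0.43 and Lrat from -3.23 to -2.65 on the log2 scale, the first 2 turning without the non-LRC library of JV624. The cause was not tested. Over 19 alternatives, Aldh1a1 stayed between -0.61 and -0.26, Rarb between -1.10 and -0.24 and Rbp4 between 0.10 and 0.41. With 4 libraries per group the exact test cannot go below p = 0.029, and Aldh1a3 was limited by its low counts. Aldh3a1 was at 0 in every library, where low depth and an absent transcript cannot be told apart. Cyp26b1 was limited by its spread between mice, with 0 to 171 counts in the non-LRC libraries.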
